A study of Mus musculus with 118 samples.

Results

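The Zic genes encode zinc finger transcription factors of the early nervous system, and the 4 examined here, Zic1, Zic2, Zic4 and Zic5, form a pair of head-to-head couples. They were taken by name, and all 4 were found among the 26182 gene loci with curated RefSeq transcripts on mm10 (GRCm38). Their transcription start sites (TSSs), gene bodies and the DNA between the paired genes were set against 3 peak lists from untreated mouse embryonic stem cells (ESCs). The lists give the places bound by RING1B, SUZ12 and PCGF2 in calibrated ChIP-seq, in which human HEK293T cells were mixed in as an internal standard. The labels name 3 untreated PRC1CPM samples for each of the 3 proteins and 3 untreated PRC1CKO samples for SUZ12, out of 118 samples in 42 groups.

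Cells of both lines were of the E14 strain, were grown in serum with leukemia inhibitory factor, carried the ERT2-Cre recombinase at Rosa26 and had received no tamoxifen (time point 0 h). PRC1CPM (clone 41) carried Ring1a with the substitutions I50A and D53K, and a floxed Ring1b allele that tamoxifen converts to the I53A and D56K form. PRC1CKO (clone B9) was Ring1a-/- with floxed Ring1b. Therefore neither line had an active RING1A before treatment, and RING1B was the remaining catalytic subunit. Each line is 1 clone. Each list merges its samples into positions only, with no height, depth or replicate value, so no error between samples could be given and no test was made. Expression, and binding after tamoxifen, were not measured by these lists.

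The Polycomb repressive complexes hold developmental genes silent in ESCs. PRC1, built on RING1A or RING1B, ubiquitylates histone H2A, and PRC2, which needs SUZ12, methylates histone H3. PCGF2 marks canonical PRC1, which can be brought to chromatin by the mark that PRC2 leaves. Among the Zic genes, Zic1 and Zic4 act in the dorsal neural tube and cerebellum, and loss of the pair is linked to Dandy-Walker malformation. Zic2 is mutated in holoprosencephaly, and Zic5, its neighbour, acts in neural crest formation.

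The RefSeq promoter table (build GRCm38.p6) held 3 of the 4 genes, Zic1, Zic4 and Zic5. Their 250 bases upstream of the TSS are shown because the promoters differ widely in CpG content although all lie under the same kind of peak. CpG dinucleotides are in capitals. The sequences run 5′ to 3′ along each gene's strand, from chr9:91365769-91366018 (minus strand) for Zic1, chr9:91368722-91368971 (plus strand) for Zic4 and chr14:122465659-122465908 (minus strand) for Zic5.
Zic1: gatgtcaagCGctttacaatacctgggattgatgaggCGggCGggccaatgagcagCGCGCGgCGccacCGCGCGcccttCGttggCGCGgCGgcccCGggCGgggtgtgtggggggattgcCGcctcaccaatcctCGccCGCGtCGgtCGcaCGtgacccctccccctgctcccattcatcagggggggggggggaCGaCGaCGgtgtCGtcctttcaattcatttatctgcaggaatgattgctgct
Zic4: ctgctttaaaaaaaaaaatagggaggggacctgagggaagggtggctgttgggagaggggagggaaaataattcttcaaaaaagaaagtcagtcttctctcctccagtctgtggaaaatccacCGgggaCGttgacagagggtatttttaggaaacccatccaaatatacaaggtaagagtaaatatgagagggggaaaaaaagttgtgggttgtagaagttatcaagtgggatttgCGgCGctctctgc
Zic5: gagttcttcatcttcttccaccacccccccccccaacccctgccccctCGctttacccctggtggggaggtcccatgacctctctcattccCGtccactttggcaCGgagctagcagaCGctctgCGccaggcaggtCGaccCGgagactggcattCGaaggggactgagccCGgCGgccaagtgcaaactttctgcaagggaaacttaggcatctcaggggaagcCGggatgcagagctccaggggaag

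The Zic1 promoter held 27 CpGs in these 250 bases and a GC content of 66%. The Zic5 promoter held 11 CpGs and 62.4% GC. The Zic4 promoter held 4 CpGs, the fewest of the 3, and 44.4% GC. When the 50 bases after the TSS were counted as well, the 3 promoters had 31, 15 and 8 CpGs, against a median of 7 over 32817 distinct promoters of the table. The GC box (GGGCGG), searched on both strands over the 300 bases, had 3 matches at Zic1, starting 212 and 152 bases upstream and, on the other strand, 17 bases into the transcript. Zic5 had 1 match, at base 41 of the transcript, and Zic4 had 0. Of all promoters, 35.6% held this motif. The CCAAT box (CCAAT) had 2 matches at Zic1, starting 205 and 121 bases upstream, and 0 at Zic4 and Zic5, beside 37.4% of all promoters with a match. The TATA box (TATAAA, in 13.6% of all promoters) and the core of the GLI motif (GACCACCC, in 0.808%) had 0 matches in the 3 promoters.

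Stretches away from the promoters are shown as examples of the CpG-rich and CpG-poor DNA under the peaks and in the PCGF2 gap. These 3 stretches of 200 bases of the plus strand of GRCm38 were picked for their high or low CpG count, outside annotated exons and over 300 bp from any curated TSS, so their contrast was set by the choice. The densest such stretch under the RING1B peak of Zic1 and Zic4, at chr9:91381638-91381837, lies in an intron of Zic4 and held 24 CpGs. That under the peak of Zic2 and Zic5, at chr14:122490769-122490968, lies downstream of Zic2 in an intron of a noncoding Pcca transcript and held 25 CpGs. The stretch with the fewest in the gap that splits the PCGF2 signal in Zic4, at chr9:91372168-91372367, held 0 CpGs.
Zic4 intron: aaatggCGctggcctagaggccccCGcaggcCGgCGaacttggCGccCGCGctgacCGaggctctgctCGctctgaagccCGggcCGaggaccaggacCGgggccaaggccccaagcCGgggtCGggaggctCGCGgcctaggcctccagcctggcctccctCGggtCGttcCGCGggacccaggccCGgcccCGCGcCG
Downstream of Zic2: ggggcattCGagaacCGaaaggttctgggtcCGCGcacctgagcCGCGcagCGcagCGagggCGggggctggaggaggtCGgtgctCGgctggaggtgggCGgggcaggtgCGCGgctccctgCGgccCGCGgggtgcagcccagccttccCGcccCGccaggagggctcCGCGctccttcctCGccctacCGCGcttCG
PCGF2 gap in Zic4: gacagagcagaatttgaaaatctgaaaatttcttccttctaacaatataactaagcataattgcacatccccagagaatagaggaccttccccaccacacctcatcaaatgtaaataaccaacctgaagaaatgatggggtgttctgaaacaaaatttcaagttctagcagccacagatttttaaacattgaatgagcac

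To define how the Zic promoters were occupied, peaks were counted within 2500 bp of each curated TSS. A peak of RING1B, of SUZ12 and of PCGF2 lay at a promoter of all 4 Zic genes. The genes form 2 couples, each with shared peaks, so they are not 4 independent cases. Over all gene loci, 53.2% had RING1B at a promoter (95% Wilson interval 52.6% to 53.8%, counting error only), 24.8% had SUZ12 and 13.5% had PCGF2. All 3 lists together were present at 3508 genes, a share of 13.4% (13.0% to 13.8%). The overlap at the Zic genes was complete, since each of the 5 curated TSSs lay inside a peak of every list and 100% of each 5001-bp window was covered. The remaining annotated models gave the same picture except at Zic4, where 19 of 20 TSSs of predicted transcripts lay under PCGF2, and 20 of 20 under RING1B and under SUZ12.

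Zic1 and Zic4 lay together under a single RING1B peak. This peak ran from 91348630 to 91396950 on chromosome 9, a width of 48321 bp, and was the 6th widest of 18643 RING1B peaks. A single SUZ12 peak, the 9th widest of 7438, ran from 91348759 to 91390255 and was 41497 bp wide. PCGF2 covered the locus in 2 pieces, of 22659 bp from 91349509 to 91372167 and of 16997 bp from 91373170 to 91390166. They were the 36th and 95th widest of 3680 PCGF2 peaks. The pair is divergent, with the Zic1 TSS at 91365768 on the minus strand and the Zic4 TSS at 91368972 on the plus strand, 3204 bp apart. The first PCGF2 piece held both of these TSSs and the second held the downstream Zic4 TSS at 91377972.

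Zic2 and Zic5 shared another domain of the same form on chromosome 14. A RING1B peak of 31897 bp, the 25th widest, ran from 122461083 to 122492979. A SUZ12 peak of 31529 bp ran from 122461619 to 122493147 and was the 22nd widest, and a PCGF2 peak of 29092 bp ran from 122462731 to 122491822 and was the 16th widest. Here PCGF2 was not split. The Zic5 TSS at 122465658 on the minus strand and the Zic2 TSS at 122475384 on the plus strand lay 9726 bp apart, and the DNA between them was covered in full in each list.

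**Figure D1:**
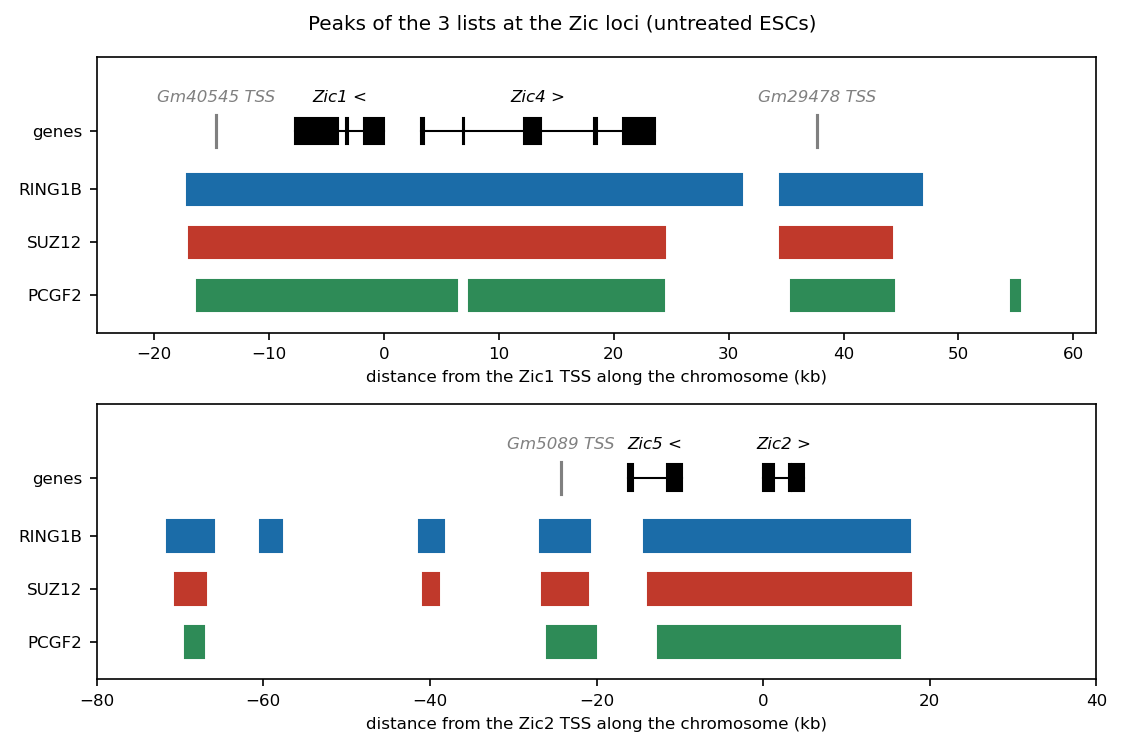
Peaks of RING1B (blue), SUZ12 (red) and PCGF2 (green) along Zic1 and Zic4 and along Zic2 and Zic5, with distance from the TSS of Zic1 or Zic2 in kb on the x axis, exons as black boxes, and arrowheads for the strand of each gene. Each Zic couple sits under 1 RING1B and 1 SUZ12 peak, PCGF2 is broken by 1002 bp within Zic4, and the end of Zic5 is outside all peaks.

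The gene bodies were covered to different extents. Zic1 (7711 bp, chromosome 9 from 91358058 to 91365768) and Zic2 (4945 bp, chromosome 14 from 122475384 to 122480328) lay wholly inside 1 peak of each list. Zic4 (20380 bp, chromosome 9 from 91368972 to 91389351) lay wholly inside 1 RING1B and 1 SUZ12 peak, and PCGF2 covered 95.1% of it. Zic5 (6499 bp, chromosome 14 from 122459160 to 122465658) was covered to 70.4% by RING1B, 62.2% by SUZ12 and 45.1% by PCGF2. Of 21000 coding genes, 2.8% lay wholly inside 1 RING1B peak, 2.15% inside 1 SUZ12 peak and 1.37% inside 1 PCGF2 peak. The mean coverage of a coding gene was 9.11% by RING1B, 5.72% by SUZ12 and 3.08% by PCGF2. The medians were 1.13%, 0% and 0%. These values are over coding genes of all lengths and were not matched to the lengths of the Zic genes.

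**Figure D2:**
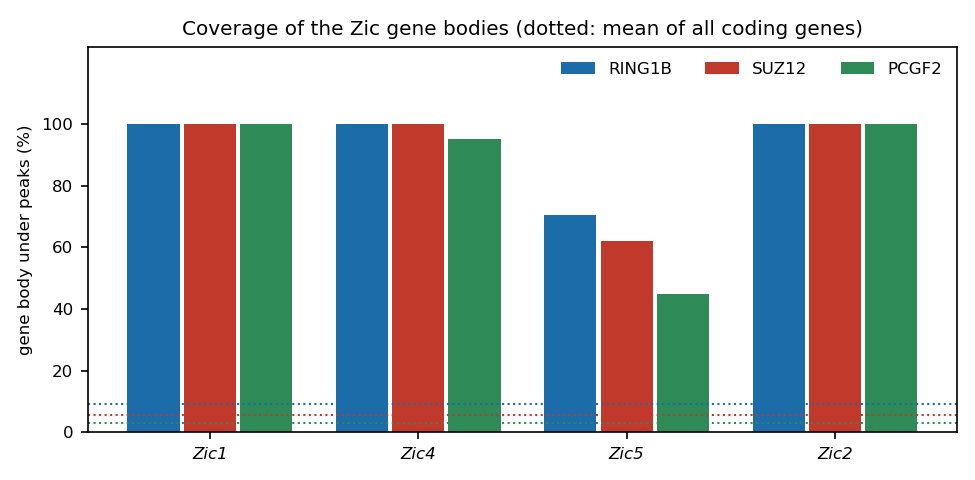
Share of each Zic gene body, in percent, under peaks of RING1B, SUZ12 and PCGF2, from the first to the last base of the curated transcripts. Dotted lines are the means over 21000 coding genes, and the bars of Zic1, Zic2 and Zic4 reach 100% except for PCGF2 at Zic4 with 95.1%, while those of Zic5 reach 70.4%, 62.2% and 45.1%.

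The stretches left uncovered each took in a whole exon. In Zic5 the peaks began in the intron and took in the first exon (1767 bp) in full, and its other exon (616 bp, from 122459160 to 122459775) had no coverage in any list. The edge lay 1307 bp from that exon for RING1B, 1843 bp for SUZ12 and 2955 bp for PCGF2. As the second exon carries the end of the reading frame, 76.3% of the Zic5 coding sequence was under peaks in each list. In Zic4 the gap in PCGF2 ran from 91372168 to 91373169, a length of 1002 bp, and contained the second exon of the longer transcript (85 bp, from 91372608 to 91372692). RING1B and SUZ12 crossed this gap, and 93.6% of the Zic4 coding sequence was under PCGF2.

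The PCGF2 gap was poor in CpGs. It held 4 CpGs in 1002 bp, with a CpG observed/expected of 0.114 and a GC content of 37.4%, beside 0.500 in the PCGF2 piece before it and 0.422 in the piece after it. Observed/expected here compares the CpG count with the count that the C and G content of a stretch of that length would give if bases were in random order. DNA under PCGF2 right beside the gap was also poor in CpGs. Stretches of 500 bp centred 5.5 and 6.0 kb from the Zic1 TSS, before the gap, had 0.040 and 0.200. Those centred at 8.0 and 8.5 kb, after it, had 0.053 and 0.100. The low CpG content was thus not particular to the gap. A PCGF2 signal in 2 or more pieces was found at 37 of the 102 RING1B peaks of at least 20 kb, a share of 36.3%, so Zic4 was one of many such domains. The PCGF2 list keeps peaks called in every replicate, and the part of that rule in the gap was not tested.

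To compare the extent of the factors at the same site, the outer edges of the lists were set against each other. On the Zic1 side, SUZ12 started 129 bp and PCGF2 879 bp inside the RING1B edge. On the Zic4 side, RING1B ran 6695 bp past the end of SUZ12 and 6784 bp past that of PCGF2. Over the 3540 RING1B peaks that overlap both other lists, the median distance between the outer edges of RING1B and SUZ12 was 387 bp. An edge of 6695 bp was in the 99.6th percentile of the 7080 edges, and RING1B reached at least 5 kb past SUZ12 on a side at 9 of the 3540 peaks (0.254%) and at 3 of the 102 that were at least 20 kb wide (2.94%). The stretch with RING1B alone, from 91390256 to 91396950, began 904 bp beyond the last base of Zic4 and had a CpG observed/expected of 0.280. At Zic2 and Zic5 the edges were closer. SUZ12 began 536 bp inside RING1B on the Zic5 side and ended 168 bp outside it on the Zic2 side, and PCGF2 lay 1648 bp and 1157 bp inside. The rules behind the lists differ, and an edge between lists is a property of the calls as well as of the binding.

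The domains reached well beyond the genes. RING1B ran 9428 bp past the last base of Zic1 and 7599 bp past that of Zic4, so that 64.8% of the peak lay between the outer ends of the genes. On chromosome 14, RING1B ran 12651 bp past the end of Zic2 but stopped 1923 bp short of the end of Zic5. Noncoding TSSs lay under the same peaks. Next to Zic1 these were predicted transcripts of A730094K22Rik, Gm40545 and Gm40546, and next to Zic2 they were 2610035F20Rik, whose TSS is 185 bp from that of Zic2 on the other strand, Gm33769, and a noncoding Pcca transcript that starts 8981 bp downstream of the Zic2 TSS. All of these TSSs were inside peaks of all 3 lists. A predicted coding transcript of Pcca, which starts 9033 bp downstream of the Zic2 TSS, was inside all 3 lists as well. The TSS of the curated coding transcript of Pcca, 58944 bp from that of Zic2, was outside all 3.

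Further peaks flanked each couple. Beyond Zic4, 3313 bp after the first domain, a RING1B peak of 12310 bp held the TSS of the predicted noncoding gene Gm29478 and overlapped SUZ12 (9806 bp) and PCGF2 (8999 bp). The intervening 3313 bp had a CpG observed/expected of 0.171. A PCGF2 peak of 817 bp further on, from 91420328 to 91421144, overlapped neither RING1B nor SUZ12, as did 12 of the 3680 PCGF2 peaks. No other RING1B peak was found for 1075782 bp on the Zic1 side or for 837337 bp beyond the Gm29478 peak, while the median gap between neighbouring RING1B peaks was 37502 bp. Beside Zic5, a RING1B peak of 6021 bp lay 6434 bp away, held the TSS of the noncoding gene Gm5089 and overlapped SUZ12 (5597 bp) and PCGF2 (5786 bp). Another 3 RING1B peaks, of 2975, 2722 and 5589 bp, followed within 100 kb of Zic5, of which the first overlapped SUZ12 but not PCGF2 and the farthest overlapped both. On the Zic2 side the next RING1B peak was 419528 bp away.

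Of the nearest coding genes, Pcca alone had a TSS inside a Zic domain. On chromosome 9 these were Tbc1d2b, 1087288 bp from Zic1, with RING1B and SUZ12 at a promoter, and Plscr5, 803741 bp from Zic4, with no peak. On chromosome 14 Clybl ended 56925 bp from Zic5 and had RING1B alone at its promoter. Pcca, whose curated coding transcript starts 53999 bp past Zic2, counted as occupied by all 3 lists through its curated noncoding start inside the Zic2 domain, where its predicted coding start also lay.

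To ask how often a couple of divergent genes shares a domain, head-to-head pairs of coding genes with nearest TSSs up to 20 kb apart and no other coding TSS between them were collected. There were 2440 such pairs, with Zic1-Zic4 and Zic5-Zic2 among them. Both TSSs lay in the same RING1B peak in 749 pairs (30.7%), in the same SUZ12 peak in 88 (3.61%), in the same PCGF2 peak in 35 (1.43%), and in 1 peak of each list in 31 (1.27%). Both Zic couples were among the 31. Most spanned pairs were close together, with a median TSS distance of 174 bp in the RING1B list, so pairs 1 to 20 kb apart were also counted. Of 1532 such pairs, RING1B spanned 6.66%, SUZ12 1.83%, PCGF2 0.914% and all 3 lists 0.849%, or 13 pairs.

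Both Zic couples lay under wide peaks, and Zic5-Zic2 was also widely spaced. The distance of 9726 bp between Zic5 and Zic2 was the longest of the 31 pairs with all 3 lists and the second longest of the 749 spanned by RING1B, where the longest was 11756 bp. That of 3204 bp between Zic1 and Zic4 was the 26th of the 749 and the 9th longest of the 31. It was also below the median of 3891 bp of the 13 pairs with all 3 lists at 1 to 20 kb. By width of the RING1B peak, Zic1-Zic4 came 2nd and Zic5-Zic2 came 4th of the 749. The widest, of 106860 bp, held Evx2 and Hoxd13. The median width of a RING1B peak spanning a pair was 1673 bp over the 749, most of them close together. For spanned pairs 1 to 20 kb apart it was 4570.5 bp, and for the 13 of these with all 3 lists it was 12957 bp.

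**Figure D3:**
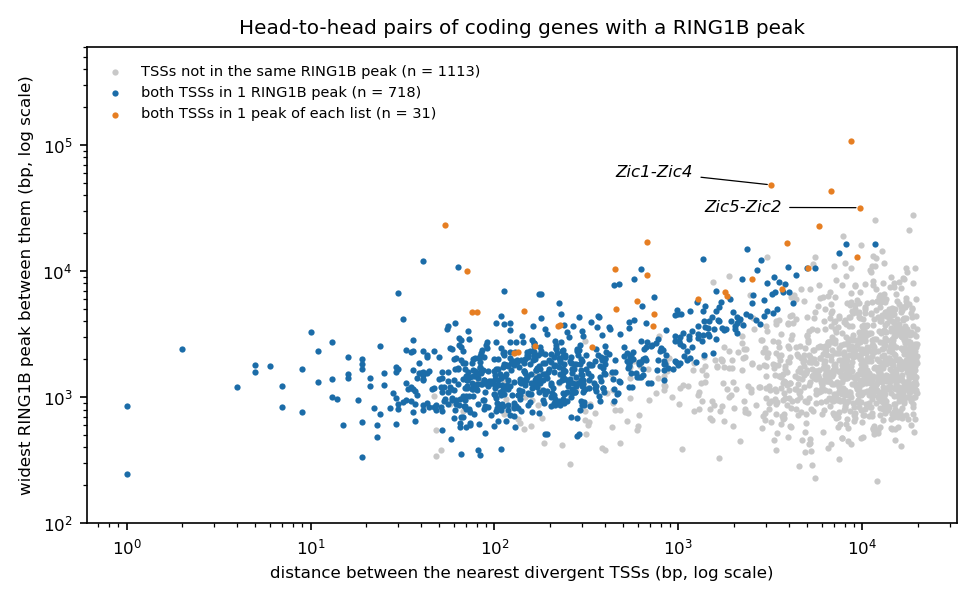
Distance between the nearest divergent TSSs of head-to-head pairs of coding genes (x axis, bp, log scale) against the width of the widest RING1B peak between them (y axis, bp, log scale), for pairs with a RING1B peak. The 31 pairs spanned by 1 peak of each list are orange, and Zic1-Zic4 (3204 bp, 48321 bp) and Zic5-Zic2 (9726 bp, 31897 bp) lie at the upper right among them.

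The pairs most like each Zic couple were found by the Euclidean distance between log2 widths of the widest RING1B, SUZ12 and PCGF2 peaks. The search took in 220 pairs with a peak of each list overlapping the DNA from TSS to TSS. A peak holding both TSSs was not required. For Zic1-Zic4 the PCGF2 width used was that of the first piece alone, 22659 bp, whereas its 2 pieces run over 40658 bp. The order of likeness depends on that choice, and an order with the pieces joined was not computed. For Zic1-Zic4 the nearest was Zic5-Zic2, at a distance of 0.80, and for Zic5-Zic2 it was Skida1-Mllt10, at 0.72, followed by Zic1-Zic4. The RING1B, SUZ12 and PCGF2 peaks of Skida1-Mllt10 were 43240, 37367 and 41490 bp wide. Skida1-Mllt10 was also second for Zic1-Zic4, at 0.90. The third places were Foxa1-Ttc6 for Zic5-Zic2, at 0.95, and Neurod2-Ppp1r1b for Zic1-Zic4, at 1.06. In both of these pairs the TSSs were over 18 kb apart, 18004 bp in the former and 18761 bp in the latter. The longest distance spanned by 1 peak was 11756 bp for RING1B and SUZ12 and 9726 bp for PCGF2. Therefore no single peak held both TSSs of either pair.

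PRC1 can be recruited by CpG-rich DNA, so the CpG content of the Zic loci was described beside that of all genes. In the window of 2500 bp on each side of the TSS, the CpG observed/expected was 0.783 at Zic2, 0.730 at Zic5 and 0.655 at Zic1, against a median of 0.327 over the first TSS of 26182 gene loci. These values were above those of 99.4%, 98.5% and 96.1% of the loci. The Zic4 TSS had 0.370 and its downstream TSS 0.378, at the 58.1st and 59.9th percentiles. Among the 3508 genes with all 3 lists, where the median was 0.480, Zic4 was at the 18.3rd percentile, and Zic2, Zic5 and Zic1 were at the 98.1st, 95.3rd and 87.4th. In windows of 500 bp on each side the median of all loci was 0.512, and Zic2 (0.921) and Zic1 (0.788) stood at the 93.7th and 78.7th percentiles. Zic5 (0.565) was then at the 53.6th, and the 2 Zic4 TSSs (0.413 and 0.483) were at the 43.6th and 48.1st. In windows of 1000 bp Zic2, Zic1 and Zic5 were at the 97.4th, 78.0th and 68.1st percentiles. Zic5 was therefore close to the median next to its TSS and stood apart in the widest window. Both Zic4 windows of 2500 bp were covered in full by all 3 lists, inside the RING1B and SUZ12 peaks that also hold Zic1, and the downstream one lay in the PCGF2 piece without Zic1.

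Along the domains, CpGs were concentrated in short stretches. CpG-rich bins were defined as bins of 500 bp with at least 50% GC and a CpG observed/expected of at least 0.6. In the RING1B peak of Zic1 and Zic4, 12 of 96 bins counted from its first base were CpG-rich (12.5%), and in that of Zic2 and Zic5 14 of 63 were (22.2%). The median over the 102 RING1B peaks of at least 20 kb was 16.4%, with a range from 1.22% to 43.2%. On a grid that began 50 kb before the genes, the counts were 15 of 97 and 15 of 64. On that grid, 8 of the 15 at Zic1 and Zic4 were more than 2500 bp from any curated TSS, and 3 of the 15 at Zic2 and Zic5. Outside RING1B peaks, in the region from 50 kb before to 50 kb after the genes, 0 of 141 and 1 of 155 bins were CpG-rich. In the flanking RING1B peaks, with bins counted from the first base of each, the share of CpG-rich bins differed from peak to peak. The Gm29478 peak had 0 of 24, with a CpG observed/expected of 0.285. The Gm5089 peak had 1 of 12, and those of 2975, 2722 and 5589 bp had 0 of 5, 0 of 5 and 2 of 11. Over the whole RING1B peaks of Zic1-Zic4 and Zic2-Zic5 the CpG observed/expected was 0.436 and 0.565. The wide peaks had a median of 0.436.

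**Figure D4:**
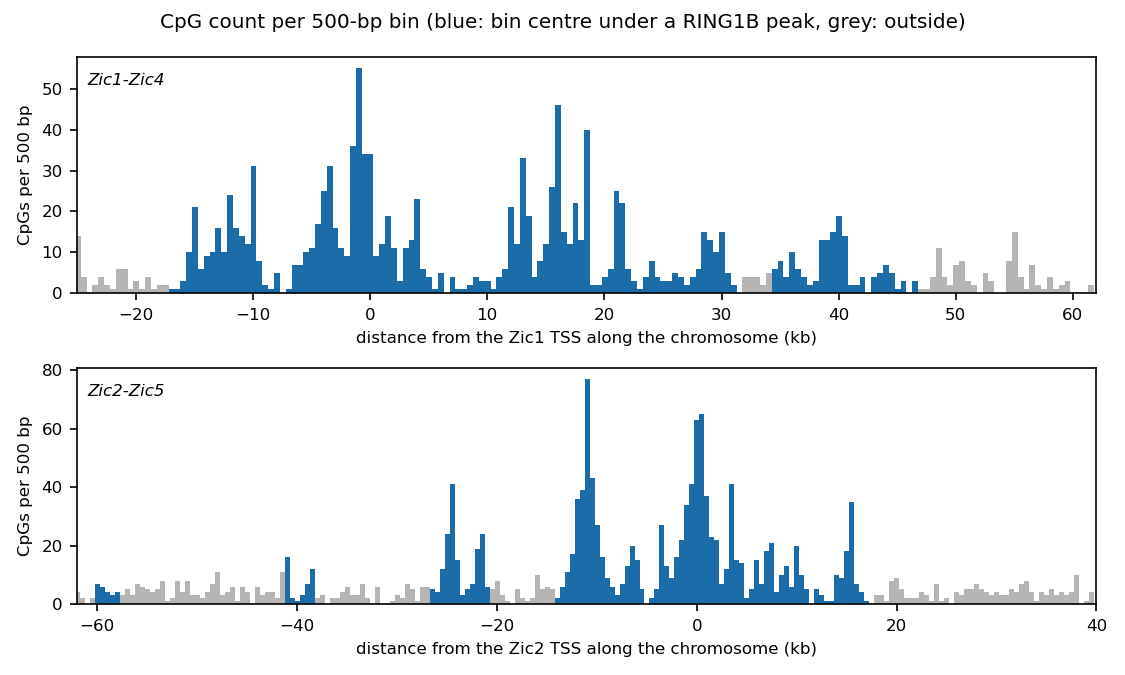
Number of CpGs in each 500-bp bin (y axis) along the Zic loci, with distance from the TSS of Zic1 or Zic2 in kb (x axis), in blue where the centre of the bin lies under a RING1B peak and in grey elsewhere. The highest bins hold 55 CpGs at Zic1-Zic4 and 77 at Zic2-Zic5, and bins with few CpGs lie between them under the same peaks.

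Peaks of the size seen at the Zic couples were rare. Only 102 of 18643 RING1B peaks were 20 kb or wider, and all 102 overlapped both SUZ12 and PCGF2. Of these, 4 held no coding TSS, 80 held the TSSs of 1 coding gene, and 18 those of 2 or more coding genes. Exactly 2 coding genes were found in 10 of the 18. A head-to-head pair lay in 6 of the 102, with the Zic couples being 2 of the 6. SUZ12 covered 85.9% of the RING1B peak at Zic1 and Zic4 and 98.3% of that at Zic2 and Zic5, and the median of the 102 was 99.3%. PCGF2 covered 82.1% and 91.2%, with a median of 89.1%.

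**Figure D5:**
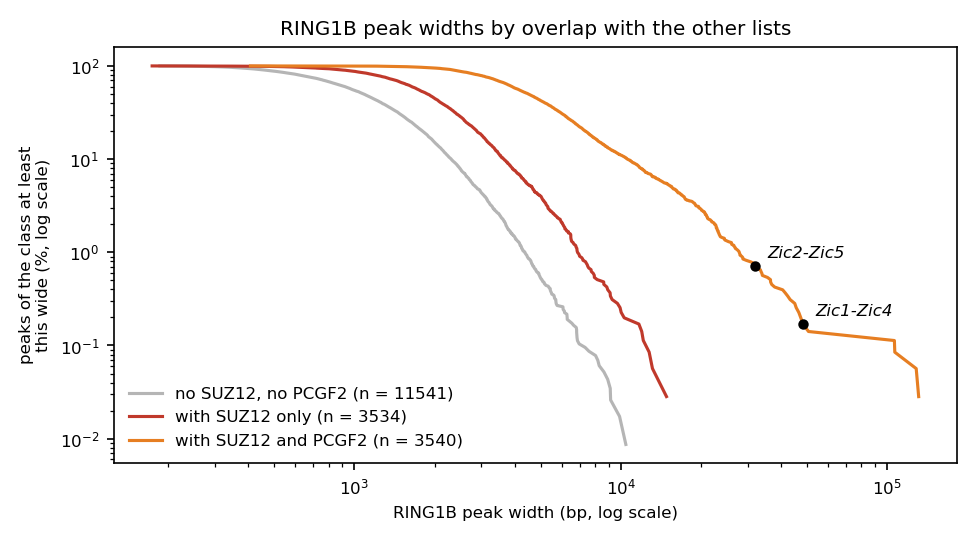
Share of RING1B peaks (y axis, percent, log scale) that are at least as wide as the value on the x axis (bp, log scale), for peaks with SUZ12 and PCGF2 (3540), with SUZ12 but no PCGF2 (3534) and with neither (11541). Black points mark the peaks over Zic1-Zic4 (48321 bp) and Zic2-Zic5 (31897 bp) in the first class, near its wide end.

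Genes related to the Zic family or acting with it were then classified by the same promoter rule. Of 6 GLI and GLIS genes, which encode the nearest relatives of the Zic zinc fingers, 4 had all 3 lists at a promoter, beside 13.4% of all genes. By RING1B width these were led by Gli2 (9427 bp), Glis1 (6378 bp) and Glis3 (5064 bp). Gli1 had RING1B and SUZ12 without PCGF2, and Glis2 had RING1B alone. Their widest promoter peak was therefore less wide than that of either Zic couple.

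Of 15 genes linked to holoprosencephaly, the disorder in which Zic2 is mutated, 9 had all 3 lists, 5 had RING1B alone and 1 had no peak, where the shares of all genes were 13.4%, 28.6% and 46.5%. Six3, a forebrain regulator, had a RING1B peak of 26652 bp, Shh, the midline signal, one of 16387 bp, and Fgf8 one of 14968 bp. RING1B without the others was found at Disp1, Foxh1, Nodal, Stil and Tgif1, among them the NODAL ligand and a nuclear partner of its pathway, and Cdon had no peak. Of 19 genes of the dorsal neural tube, neural plate border and neural crest, where Zic1, Zic2 and Zic5 act, 18 had all 3 lists, beside the same 13.4% of all genes. The exception was Snai2, with RING1B (1674 bp) and SUZ12 (2989 bp). The widest RING1B peaks were at Tfap2a (47427 bp), Dlx5 (37823 bp) and Pax3 (36873 bp), of a similar size to the RING1B peaks of the Zic couples. At Tfap2a the SUZ12 and PCGF2 promoter peaks were much narrower, at 23738 and 23158 bp. Any further pieces under its RING1B peak were not counted. The SUZ12 and PCGF2 peaks at Dlx5 (36617 and 36487 bp) and Pax3 (36950 and 34756 bp) were close to the RING1B width. These lists were put together by known function and hold many developmental genes, so their counts were not tested against other genes.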

How the data were processed

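The authors aligned paired reads with Bowtie2 to mm10 joined to the spike-in genome and called broad peaks with MACS2 against Input. RING1B and SUZ12 peaks were called on merged replicates and kept where found in both PRC1CPM and PRC1CKO cells, and RING1B peaks without significant loss on tamoxifen in PRC1CKO cells were dropped. The RING1B list thus depends on PRC1CKO cells too. The RING1B data of those cells came from an earlier study and are not among the 118 samples. PCGF2 peaks were kept where called in all PRC1CPM replicates. Blacklisted regions were removed. The deposited tables hold only a start and an end position per peak, in bp and given here from base 1, without depth or height. RING1B, SUZ12 and PCGF2 had 18643, 7438 and 3680 peaks, all on chromosomes 1 to 19, X and Y but for 5 of PCGF2.

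TSSs came from NM_ and NR_ transcripts of RefSeq (GRCm38.p6), and an overlap was at least 1 bp. Repeats were not masked, and protein sequences were not used here. 2 symbols annotated on both X and Y count as separate loci. Genes were named as the 4 Zic genes, the nearest coding genes, the 3 pairs most alike in width, and, of each function list, those outside the commonest class (up to 6) and the 3 widest of that class. A further gene that was part of the naming rule is not reported here. Evx2 and Hoxd13 were named after their values were seen, as were the noncoding neighbours. The members and lists were chosen with earlier results of these data known. The code was tested on simulated intervals. Python 3.11.15, NumPy 2.4.6, pandas 2.3.3 and matplotlib 3.10.9 were used.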

Additional observations from a re-analysis of the deposited data

How the results depend on the processing

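No paired analysis was possible because each list is a single merged set of positions with no replicate values. Of 140 values recomputed under 31 alternatives, 127 held and 13 moved, where held means within 1.5 times for a count, 1 percentage point for a coverage or percentile, and 0.1 for a CpG observed/expected. Counts that held could still shift within this rule. The share of loci with RING1B ran from 41.7% (peaks of at least 1000 bp) to 58.4% (NM_ transcripts only), and merging peaks up to 5000 bp apart gave 891 pairs in place of 749. All 4 Zic genes had a peak of each list at a promoter under each of 8 alternatives to the promoter rule, while the share of all loci with all 3 lists ran from 10.8% (all annotated transcripts) to 14.5% (NM_ transcripts only). Both Zic couples were spanned by 1 RING1B peak under the 5 alternatives for pairs. These outcomes for the Zic genes could not have changed, so they do not measure robustness. Every curated Zic TSS lay at least 2927 bp inside a peak of each list. The distance limits all kept both couples, and merging only widens peaks. The count of all pairs fell from 749 to 102 when pairs under 1 kb apart were left out. Between the gene starts farthest apart, PCGF2 covered 91.8% of the DNA of Zic1-Zic4, since that interval takes in the PCGF2 gap. Over exons only, PCGF2 covered 98.3% of Zic4, and each of the 3 lists covered 74.2% of Zic5. Merging peaks up to 1000 bp apart left the gap, which is 1002 bp long. In windows of 500 bp on each side of the TSS, the CpG observed/expected was 0.788 at Zic1, 0.921 at Zic2, 0.565 at Zic5 and 0.483 at the downstream Zic4 TSS, and in windows of 1000 bp it was 0.891 at Zic2, 0.60 at Zic5 and 0.500 at that TSS. The cause of these shifts was not tested. The lists give no depth, so a gene without a peak may be bound below what could be called.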
